A study of Macaca fascicularis with 22 samples.

Results

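The arrays titled as umbilical cord were compared with the arrays titled as liver in a study of neonatal cynomolgus macaques (Macaca fascicularis), which asked how birth weight within the normal range goes with gene expression. The comparison took all 8 arrays labelled umbilical cord and all 6 arrays labelled liver, 14 of the 22 arrays of the series, and the 8 skeletal muscle arrays served only as a further set of levels. Within the label umbilical cord 4 arrays came from average birth weight (ABW) neonates, of the 50th to 75th birth weight centile, and 4 from lower birth weight (LBW) neonates, of the 5th to 25th centile. Within the label liver there were 3 arrays of ABW and 3 of LBW neonates. The array titles call the birth weight groups Control and Treated, which were read here as ABW and LBW. The study describes no mutation or treatment in its neonates, which were female. Birth weight varied by itself among naturally conceived offspring of the same sire. Per the study's methods the cords were collected and snap frozen after birth, whereas liver and biceps femoris were taken on postnatal day 5, so tissue and age at sampling cannot be told apart, although the sample labels place all tissues at birth. The methods give 4 animals per birth weight group, and the sources used here do not say which arrays came from 1 animal, so the p-values below measure the spread between these arrays.

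The levels of tissue genes went against both labels. Genes that hepatocytes are known for were high on the arrays labelled umbilical cord and low, or not above background, on those labelled liver, and collagen and other connective tissue genes had the opposite pattern. The labels are kept here as deposited, the arrays are called cord-labelled and liver-labelled throughout, and no array was moved to another group. By the genes named below the cord-labelled arrays resembled liver, and the liver-labelled arrays resembled a connective tissue such as that of the cord. How this came about was not tested. Every direction stated below is that of the label, and the 2 tissues cannot be named from the labels alone. In such whole-tissue RNA a lower share of cells of a type and less RNA per cell cannot be told apart.

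As background, the liver parenchyma consists mainly of hepatocytes, which make most proteins of the blood plasma, break down amino acids, oxidise fatty acids, and conjugate drugs and bilirubin under transcription factors such as HNF4A. The umbilical cord consists of vessels in a mucoid connective tissue, Wharton's jelly, whose stromal cells lay down collagens, proteoglycans and hyaluronan, under a thin covering of amniotic epithelium. Skeletal muscle shares the connective tissue framework with the cord but lacks hepatocyte products.

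A value is the log2 of the mean processed signal of a probe's 2 spots minus the log2 of the array's 75th percentile, so that 0 is that percentile and 1 unit is a doubling. A difference is the cord-labelled minus the liver-labelled mean in a limma fit with birth weight group as a covariate, and a probe was called at a Benjamini-Hochberg adjusted p under 0.05 over all 17117 probes kept. A second rule also asked for a difference of 4-fold, or 2 log2 units. The processed signal at the 75th percentile before scaling lay between 315.5 and 2381.9 on the cord-labelled arrays and between 779.0 and 1042.6 on the liver-labelled arrays, 14596 to 17889 and 15352 to 16156 probes were well above background on them, and no spot was saturated. The arrays lay on 6 slides. Slide 4 held cord-labelled ABW replicates 1 and 2 and liver-labelled LBW replicates 2 and 3, so that within it label and birth weight are confounded, slide 3 the other liver-labelled arrays, slide 5 all 4 cord-labelled LBW arrays and slide 6 cord-labelled ABW replicates 3 and 4, scanned on another day.

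Each array lay with its own label. The correlation across probes between pairs of cord-labelled arrays had a median of 0.960 (0.922 to 0.976), between liver-labelled arrays 0.976 (0.968 to 0.982), and between a cord-labelled and a liver-labelled array 0.718 (0.692 to 0.734). Cord-labelled arrays correlated with skeletal muscle at a median of 0.721 (0.685 to 0.758), and liver-labelled arrays at 0.795 (0.753 to 0.824), without overlap apart from 0.753 to 0.758. These are correlations across probes, which are not independent replicates, and are given as a description. The first principal component, with 53.0% of the variance, set the cord-labelled arrays apart from the other two sets, and the second, with 31.4%, separated the liver-labelled from the skeletal muscle arrays.

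**Figure D1:**
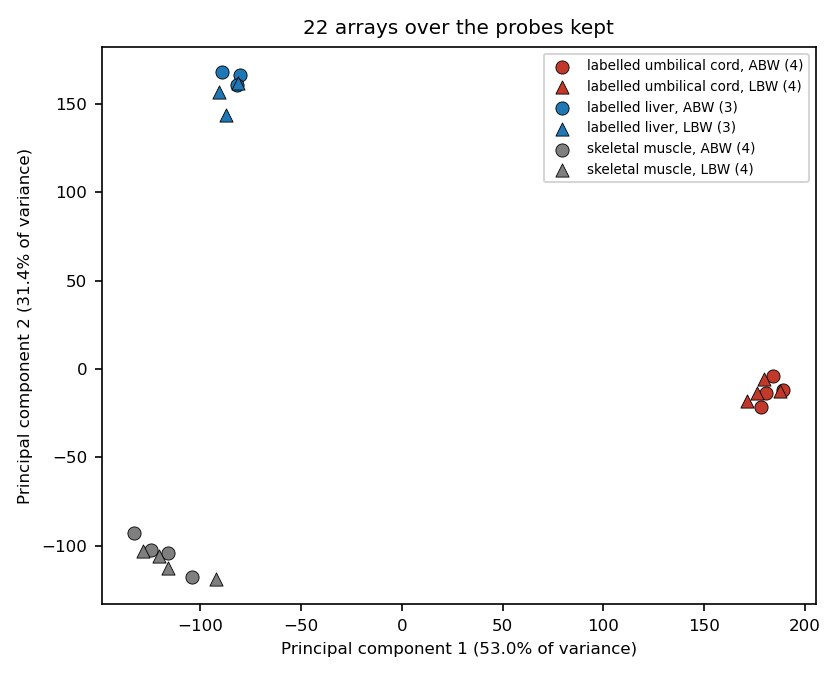
Scores of the 22 arrays on the first 2 principal components of the 17117 probes kept, in units of the component scores, with colour for the label and circles for ABW and triangles for LBW. The 8 cord-labelled, 6 liver-labelled and 8 skeletal muscle arrays form 3 separate groups, and no array lies with another label.

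Most probes differed between the labels. With limma 5770 probes, 33.7% of all tested, were higher on the cord-labelled arrays and 5087, or 29.7%, were lower. By the 4-fold rule 1898 probes were higher, 11.1%, and 2165 were lower, 12.6%. Every cord-labelled array lay above every liver-labelled array at 18.7% of the probes, and the reverse held at 19.3%. The median absolute difference was 0.94 log2 units, 8188 probes differed by 2-fold or more and 1473 by 16-fold or more, and the median difference of all probes was 0.13. The median SD over the cord-labelled arrays was 0.56, against 0.33 over the liver-labelled ones. When the arrays were scaled to their spike-in controls the calls fell to 5622, 66.8% of them higher on the cord-labelled arrays against 53.1% with the 75th percentile, and the median of all probes moved up by 0.57. With slide as a fixed block they fell to 3998, 48.2% of them higher, and with the normexp correction the 4-fold calls were 1187 higher and 1071 lower. Within slide 4, which sets 2 cord-labelled ABW arrays against 2 liver-labelled LBW arrays, 7573 probes were called.

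A symbol could be given to 1719 of the probes kept, for 1648 genes, because the study pairs these accessions with symbols after choosing them for a birth weight effect on these same arrays. The named genes are therefore not a random sample of the array, and many well known markers, albumin among them, could not be looked up. Of the 1648 genes 528 were called higher and 524 lower on the cord-labelled arrays, and 173 and 183 by the 4-fold rule. The genes below were grouped by role after their levels had been seen, so the counts describe the groups and were not tested against chance. Of all probes 33.7% were called higher and 29.7% lower, and 11.1% and 12.6% by the 4-fold rule. Each count below is read beside these shares.

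Proteins that the liver secretes into blood and bile stood far higher on the cord-labelled arrays. All 15 named genes of this group were called higher, all 15 by the 4-fold rule, and each had its highest mean of the 3 sets on the cord-labelled arrays. The median difference was 7.09, or 6.66 when the 7 genes not well above background on any liver-labelled array were set at their bound. With another background correction (normexp) the median was 3.88. The median level of the group lay between -1.17 and 2.49 on the 8 cord-labelled arrays, between -7.17 and -6.39 on the 6 liver-labelled arrays, and between -6.69 and -5.23 on the skeletal muscle arrays. The liver-labelled range thus lay below that of muscle, with some overlap.

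APOA5, an apolipoprotein made by hepatocytes that regulates plasma triglyceride, ranged from 2.70 to 5.47 with a median of 4.22 on the cord-labelled arrays. On the liver-labelled arrays it ranged from -7.18 to -5.94 with a median of -6.90 and was well above background on 4 of 6. The groups did not overlap, and the difference was 10.92 (SE 0.38, adjusted p = 2.3e-12). LIPC, hepatic lipase, lay between 0.90 and 4.97 (median 4.47) against -6.01 to -4.04 (median -4.88), a difference of 8.85 (SE 0.49, adjusted p = 5e-10). Its lowest cord-labelled array was still above the highest liver-labelled one.

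Complement and its regulators followed the same direction. C4BPB, the beta chain of the C4b-binding protein, lay between -1.53 and 3.72 (median 2.10) on the cord-labelled arrays and was not well above background on any liver-labelled array, where its values were -8.84 to -7.16. Because a dim probe gives only a bound, the cord-labelled level was at least 465-fold higher. CFHR2, a complement regulator, had a cord-labelled median of -0.71 (-2.65 to 2.45) and was at least 110-fold higher, and CFHR3, of the same family, had a median of -3.37 (-5.08 to -2.49) and was at least 13-fold higher. C2, a complement protease, was measured on all 14 arrays, with medians of 6.29 and 2.04, and was called by the 4-fold rule with a difference of 4.51.

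Carriers, clotting factors and other secreted proteins of the liver were also higher on the cord-labelled arrays. Ceruloplasmin (CP), the copper-carrying ferroxidase, lay between -3.39 and 2.40 (median -0.39) on the cord-labelled arrays and between -9.19 and -7.62 on the liver-labelled ones, none of them above background, so that it was at least 129-fold higher. INHBC, the inhibin beta C subunit, was at least 101-fold higher, from a cord-labelled median of -0.68. The vitamin D-binding protein gene GC was at least 62.8-fold higher, and F13B, the carrier subunit of coagulation factor XIII, at least 48.1-fold higher, with cord-labelled medians of -2.03 and -1.86. These bounds are for the mean of all 8 cord-labelled arrays, and the LBW arrays alone were lower, with means of -2.84 for GC and -3.63 for F13B against 0.15 and 0.18 in ABW. The same held for CP (-2.17 against 1.56), CFHR2 (-2.28 against 1.22) and C4BPB (0.059 against 3.04), so the bounds of these 5 genes do not apply to LBW alone. HGFAC, the activator of hepatocyte growth factor, had medians of 6.26 and -0.73, and LEAP2, an antimicrobial peptide of the liver, medians of 0.35 and -6.57. SERPINF1, which stromal cells also make, differed least of the 15, by 2.92, with medians of 7.01 and 4.13.

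Enzymes of amino acid breakdown were higher on the cord-labelled arrays at 20 of 22 genes, 17 of them by the 4-fold rule, 1 was lower and 1 was not called. The median difference was 4.13, and 17 genes did not overlap between the labels in this direction. NAGS, which makes the activator of the first step of the urea cycle, lay between -0.33 and 2.34 (median 1.13) on the cord-labelled arrays and was not well above background on any liver-labelled array, which put it at least 306-fold higher. TAT, tyrosine aminotransferase, a classical marker of the differentiated hepatocyte, lay between -0.55 and 1.32 (median 0.46) against -8.64 to -6.38 (median -7.94), a fitted difference of 8.19 (SE 0.29, adjusted p = 2.7e-12). It was well above background on 1 of 6 liver-labelled arrays, and here, as for other genes measured on only some arrays of a label, the fitted difference rests in part on dim values. BHMT2, a methionine-forming methyltransferase, had medians of 1.60 and -5.79 and a difference of 7.32. Neither gene overlapped between the labels.

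The kynurenine route, which turns tryptophan into NAD, was represented by HAAO, QPRT, KYNU and ACMSD. HAAO lay between 4.80 and 6.28 (median 5.78) on the cord-labelled arrays and between -1.73 and -0.67 (median -0.86) on the liver-labelled arrays, a difference of 6.67 (SE 0.19, adjusted p = 2.5e-13). QPRT differed by 4.65 and KYNU by 2.46. ACMSD, which diverts the route away from NAD, was above background on 7 of 8 cord-labelled and none of the liver-labelled arrays. It was at least 19.8-fold higher, a bound for the mean of all 8 cord-labelled arrays. Its LBW arrays lay between -5.97 and -4.35, against -2.23 to -0.019 in ABW. The bound therefore does not apply to LBW alone. All 4 genes were called higher on the cord-labelled arrays.

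GPT2, the mitochondrial alanine aminotransferase, was high in 2 of the 3 sets, with medians of 1.06 on the cord-labelled, -5.12 on the liver-labelled and 2.32 on the skeletal muscle arrays. BCAT2, which starts the breakdown of branched-chain amino acids and is known for its low level in liver, was the one gene of the group that was called lower on the cord-labelled arrays. It lay between -1.99 and -0.93 (median -1.32) there, between 1.63 and 2.20 (median 2.02) on the liver-labelled arrays and between 3.54 and 4.30 on the skeletal muscle arrays. The labels did not overlap and the difference was -3.33 (SE 0.18, adjusted p = 2.9e-10). PSPH, of serine synthesis, was not called (difference -0.45).

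Genes of lipid, drug and bile metabolism were called higher on the cord-labelled arrays at 25 of 28, 22 of them by the 4-fold rule, and none was called lower. The median difference was 3.68. UGT2B11, a glucuronosyltransferase, lay between 1.52 and 4.22 (median 2.71) against -9.18 to -6.06 (median -8.51), with a fitted difference of 10.85 (SE 0.36, adjusted p = 1.5e-12) that rests largely on dim values, since 1 of 6 liver-labelled arrays was above background. UGT1A6, of the same enzyme family, lay between 3.79 and 6.28 against -5.69 to -2.82 and differed by 9.71. RDH16, a retinol and steroid dehydrogenase, lay between 3.45 and 4.45 against -6.40 to -5.89, with 3 of 6 liver-labelled arrays above background, and differed by 9.97 (SE 0.18, adjusted p = 1.7e-15). In all 3 enzymes the lowest cord-labelled array stood more than 6 log2 units above the highest liver-labelled one.

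SOAT2, which esterifies cholesterol in hepatocytes and enterocytes, had medians of 2.48 and -4.05, SEC14L2, a lipid-binding protein, medians of 1.89 and -4.12, and EPHX2, soluble epoxide hydrolase, medians of 5.98 and -0.11. The differences of these genes were 6.53, 6.12 and 6.10, with no overlap between the labels. CYP4A22, a fatty acid omega-hydroxylase that was named for the size of its difference, lay between 6.0 and 7.59 against -1.80 to -1.22, a difference of 8.60. The peroxisomal enzyme EHHADH was above background on 4 of 8 cord-labelled arrays and on no liver-labelled array. The other 4 were the LBW arrays, so in LBW it was measured on neither label and no fold is given. FASN, ELOVL3 and ADH5 were not called, with differences of -0.28, 0.50 and 0.51.

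Receptors, transporters and regulators of the hepatocyte were called higher on the cord-labelled arrays at all 14 named genes, 9 by the 4-fold rule, with a median difference of 4.13 (4.06 with the 1 gene below background at its bound, and 1.96 with the normexp correction). GJB1, connexin 32, the gap junction protein of hepatocytes, lay between 5.18 and 6.01 (median 5.90) against -3.31 to -2.56 (median -2.93). Its difference of 8.73 had an SE of 0.16 (adjusted p = 1.3e-15). TMPRSS6, the protease that restrains hepcidin, lay between 3.15 and 4.56 against -5.55 to -4.63 and differed by 8.90 (SE 0.19, adjusted p = 6.5e-15). LEPR, the leptin receptor, had medians of 4.14 and -3.65, and STEAP3, an iron reductase, medians of 0.12 and -5.82.

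HNF4A, the nuclear receptor that sets much of the hepatocyte programme, lay between -4.38 and -2.0 (median -2.90) on the cord-labelled arrays, all 8 above background, and between -9.11 and -8.44 on the liver-labelled arrays, none above background. It was at least 19.4-fold higher, and it was not above background on any skeletal muscle array either. NR1H3, the liver X receptor alpha, and PPARA, a regulator of fatty acid oxidation, differed by 4.42 and 3.83. SLC38A3, a glutamine transporter, was high in 2 of the 3 sets, with medians of 4.30 on the cord-labelled, -4.21 on the liver-labelled and 2.95 on the skeletal muscle arrays. MET, GGT1, SLC13A3, IL1RAP and IL22RA1 differed least, by 0.81 to 1.5.

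**Figure D2:**
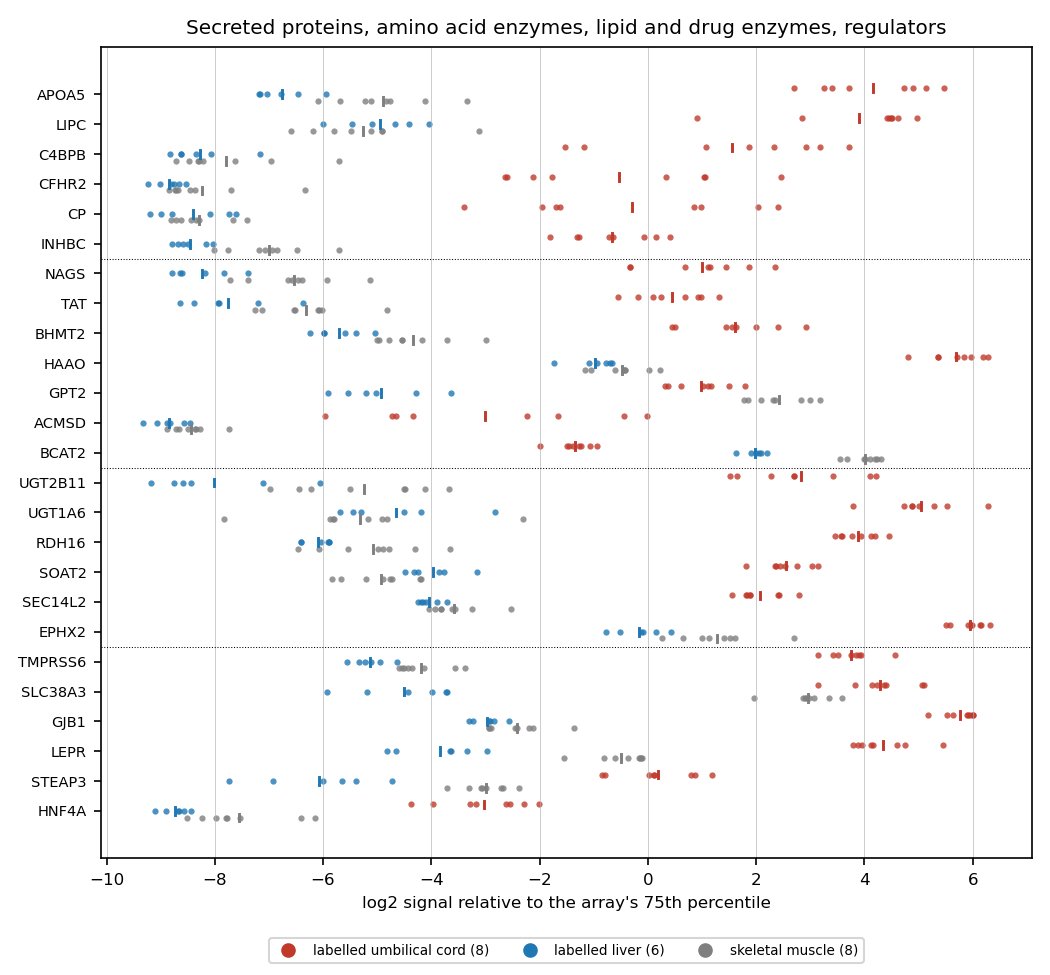
Level of 25 named genes on each array, as log2 signal relative to the array's 75th percentile, with points for the 8 cord-labelled, 6 liver-labelled and 8 skeletal muscle arrays and bars for the means, in 4 blocks by role. The cord-labelled points lie to the right of all liver-labelled points at every gene shown but BCAT2, and GPT2 and SLC38A3 are also high on the muscle arrays.

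Over the 4 groups of liver genes together, 74 of 79 were called higher on the cord-labelled arrays and 1 lower, beside 33.7% and 29.7% of all probes. At 60 of the 79 every cord-labelled array lay above every liver-labelled array, beside 18.7% of all probes. At 49 every cord-labelled array also lay above every skeletal muscle array. At 71 the highest mean of the 3 sets was the cord-labelled one, and 11 were not well above background on any liver-labelled array. The median differences of the 4 groups within ABW were 7.68, 4.12, 4.21 and 3.72, in the order above, within LBW 6.41, 3.97, 3.51 and 4.54, and within slide 4 (cord-labelled ABW against liver-labelled LBW) 7.43, 3.81, 4.10 and 4.46. All of these medians were positive.

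Textbook marker lists of the liver, written without regard to which genes had a name, gave the same direction on the few members that could be looked up. The named members were 5 of 20 complement components, 9 of 25 genes of the urea cycle and amino acid catabolism, 4 of 34 of drug, conjugation and bile acid metabolism, 3 of 17 hepatocyte transcription factors, and 2 each of 29 plasma proteins, 17 apolipoproteins and lipases, 21 coagulation factors, 11 acute phase and iron genes and 23 of glucose control. All were called higher on the cord-labelled arrays by the 4-fold rule. These genes largely overlap the groups above and so add no independent count. No member of the lists for bile duct, Kupffer cells, erythroid cells, neutrophils, lymphocytes, smooth muscle, trophoblast, adipocytes, immediate early genes and the insulin-like growth factor system had a name, so those lists were not analysed here.

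Some probes were seen on one label alone. On every cord-labelled and no liver-labelled array 251 probes were well above background, with a median bound of 48.8-fold, and 90 of them were above background on no skeletal muscle array. The reverse held for 99 probes, with a median bound of 9.03-fold, 48 of them on no muscle array. Only 18 of the 251 and 1 of the 99 had a symbol. Besides the genes above the 18 included GAS2, a growth arrest-specific cytoskeletal protein (at least 325-fold), SALL1, a zinc finger repressor (at least 37.7-fold), and SLCO4C1, an organic anion transporter (at least 23.9-fold). On the liver-labelled side the 1 named gene was A2BP1, a splicing factor, at least 7.04-fold higher. On all 14 arrays 12835 probes were above background, and on none of the 14 arrays 56.

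Large differences also belonged to probes without a symbol, given here by the accession printed on the array. NM_001633 lay between 6.79 and 9.08 (median 8.16) on the cord-labelled arrays and between -9.33 and -8.67 on the liver-labelled arrays, none above background, and NM_000035 between 6.85 and 8.76 (median 8.40) against -9.05 to -8.37. The fitted differences of 17.01 and 16.87 rest on dim values on one side, and as a bound the probes were at least 43165-fold and 46226-fold higher. On the skeletal muscle arrays they ranged from -8.52 to 2.0 and from -7.87 to 2.0. In the other direction NM_153426 lay between -8.52 and -6.46 on the cord-labelled arrays, with 1 of 8 above background, against 3.82 to 4.17, and NM_005554 between -7.45 and 2.49 (median -6.75) against 4.13 to 7.46. The array at 2.49 stood apart from the other cord-labelled arrays.

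Another 42 probes kept had no gene but a known sequence of 60 bases. A pair is shown, chosen after the values were seen, as an example of what the array reads where no gene name was at hand, 1 probe high on each label, each measured on all arrays of the label where it was high. Their genome positions were not determined here, and all bases are in lower case because no part of them is singled out.
A_01_P015993: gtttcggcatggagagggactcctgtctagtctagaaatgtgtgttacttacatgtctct
A_01_P000705: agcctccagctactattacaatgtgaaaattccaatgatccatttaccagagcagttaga
The first lay between -3.33 and -0.47 (median -1.87) on the cord-labelled arrays and between -6.02 and -5.14 (median -5.50) on the liver-labelled ones, a difference of 3.69 (SE 0.34, adjusted p = 1.7e-07). The second lay between -7.73 and -5.93 against -3.35 to -2.44, a difference of -3.89 (SE 0.21, adjusted p = 4.1e-10), with 5 of 8 cord-labelled arrays above background. Neither overlapped between the labels.

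The connective tissue matrix lay on the other side, with the most negative median difference of the groups formed here. Of 21 named genes 17 were called lower on the cord-labelled arrays, 15 by the 4-fold rule, 3 were higher and 1 was not called. Of all probes 29.7% were lower, 12.6% by the 4-fold rule, and 33.7% higher. The median difference was -3.02. The median level of the group lay between -2.83 and -2.21 on the cord-labelled arrays and between 1.59 and 2.44 on the liver-labelled arrays, with skeletal muscle between them at -1.57 to -0.24. At 15 of the 21 genes the highest mean of the 3 sets was the liver-labelled one.

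COL1A1, the alpha 1 chain of the main fibrillar collagen, lay between -2.84 and -0.67 (median -1.21) on the cord-labelled arrays and between 4.53 and 5.12 (median 4.95) on the liver-labelled arrays, a difference of -6.49 (SE 0.29, adjusted p = 3.5e-11). VCAN, versican, a hyaluronan-binding proteoglycan of loose connective tissue, lay between -2.23 and -0.02 (median -1.60) against 4.73 to 5.49 (median 5.16), a difference of -6.45 (SE 0.30, adjusted p = 5.4e-11). LUM, lumican, a small proteoglycan that orders collagen fibrils, lay between -3.29 and -2.20 against 2.26 to 3.63 and differed by -5.62. No array of one label reached the range of the other in any of these genes.

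MMP1, interstitial collagenase, lay between -8.27 and -6.19 (median -7.56) on the cord-labelled arrays, where only the 2 arrays of slide 6 were above background, and between 2.73 and 4.82 (median 4.0) on the liver-labelled arrays, and the fitted difference of -11.43 (SE 0.32, adjusted p = 1.5e-13) rests in part on dim values. On the skeletal muscle arrays it was not above background. COL8A2, a short-chain collagen, lay between -7.51 and -3.48 against 2.07 to 2.44, and LTBP3, a latent TGF-beta binding protein, between -0.65 and 0.92 against 4.29 to 5.01. FN1, fibronectin, which hepatocytes and fibroblasts both make, differed little, with medians of 5.92 and 6.74 and a difference of -0.88. The members that were higher on the cord-labelled arrays were COL27A1, a fibrillar collagen of cartilage (2.79), OPTC (0.78) and COL9A2 (0.76), and COL4A4 was not called (0.24). The calls of OPTC and COL9A2 were lost with slide as a fixed block (adjusted p = 0.40 and 0.20).

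The enzymes that modify collagen and matrix split between the labels. Of 14 genes 7 were called lower on the cord-labelled arrays, 5 by the 4-fold rule, 6 were called higher, none by the 4-fold rule, beside 29.7% of all probes lower and 33.7% higher (12.6% and 11.1% by the 4-fold rule), and the median difference was -0.62 (-0.053 after spike-in scaling). FKBP14, an endoplasmic reticulum prolyl isomerase, lay between -5.85 and -3.79 against -1.40 to -0.85, PLOD2, a collagen lysyl hydroxylase, between -4.18 and -2.82 against -0.35 to 0.76, and TGM2, tissue transglutaminase, between -3.71 and -1.58 against -0.29 to 0.75. These genes did not overlap between the labels, with differences of -3.77, -3.61 and -3.13. Higher on the cord-labelled arrays were FKBP11 (1.44), HS6ST1 (1.36), NDST1 (0.98), QSOX1 (0.89), HYAL3 (0.87) and IDUA (0.56), and 2 probes of QSOX1 were called in opposite directions. All 6 of these calls were lost with slide as a fixed block, with adjusted p from 0.090 (NDST1) to 0.81 (HYAL3).

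Genes of mesenchymal cells and their signalling were called lower on the cord-labelled arrays at 19 of 27, 15 by the 4-fold rule, and higher at 1. These counts stand beside 29.7%, 12.6% and 33.7% of all probes. The median difference was -2.19. ANXA1, annexin A1, lay between -4.31 and -2.25 (median -3.62) against 3.69 to 4.40 (median 4.07), a difference of -7.49 (SE 0.28, adjusted p = 4.2e-12). GJA1, connexin 43, the gap junction protein of fibroblasts and smooth muscle, lay between -4.44 and -2.64 (median -3.27) against 3.20 to 3.94 (median 3.69), a difference of -7.07 (SE 0.27, adjusted p = 6.7e-12). The connexins of the hepatocyte and of the mesenchymal cell thus lay on opposite sides, GJB1 at 8.73 and GJA1 at -7.07, and neither overlapped between the labels.

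NTRK3, a neurotrophin receptor, lay between -6.96 and -4.61 against 0.65 to 2.72, SLIT3, a guidance molecule, between -7.29 and -4.30 against 1.20 to 2.31, and MCAM, a surface marker of perivascular cells (CD146), between -6.03 and -4.53 against 0.30 to 1.80. VGLL3, a cofactor of TEAD proteins, was above background on 2 of 8 cord-labelled arrays and lay between -0.29 and 0.62 on the liver-labelled ones. All 4 were separated by label, with differences of -7.38, -6.89, -6.39 and -6.84. MEST, an imprinted gene of mesoderm, had medians of 1.48 and 3.79, and S100A4, a calcium-binding protein of fibroblasts and leukocytes, medians of -1.39 and 3.47. TWIST2 was the 1 gene called higher on the cord-labelled arrays (1.39), and SNAI1, SMO, PTCH1, HOXB13, TSHZ2 and ZFP36L1 were not called.

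Over these 3 groups 43 of 62 genes were lower on the cord-labelled arrays, 35 of them by the 4-fold rule, and 10 were higher, 1 by the 4-fold rule. These counts stand beside 29.7%, 12.6%, 33.7% and 11.1% of all probes. At 39 of the 62 every liver-labelled array lay above every cord-labelled array, beside 19.3% of all probes. At 32 every liver-labelled array also lay above every skeletal muscle array. Within slide 4 the median differences of the matrix, matrix enzyme and mesenchymal groups were -3.22, -0.20 and -2.19.

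**Figure D3:**
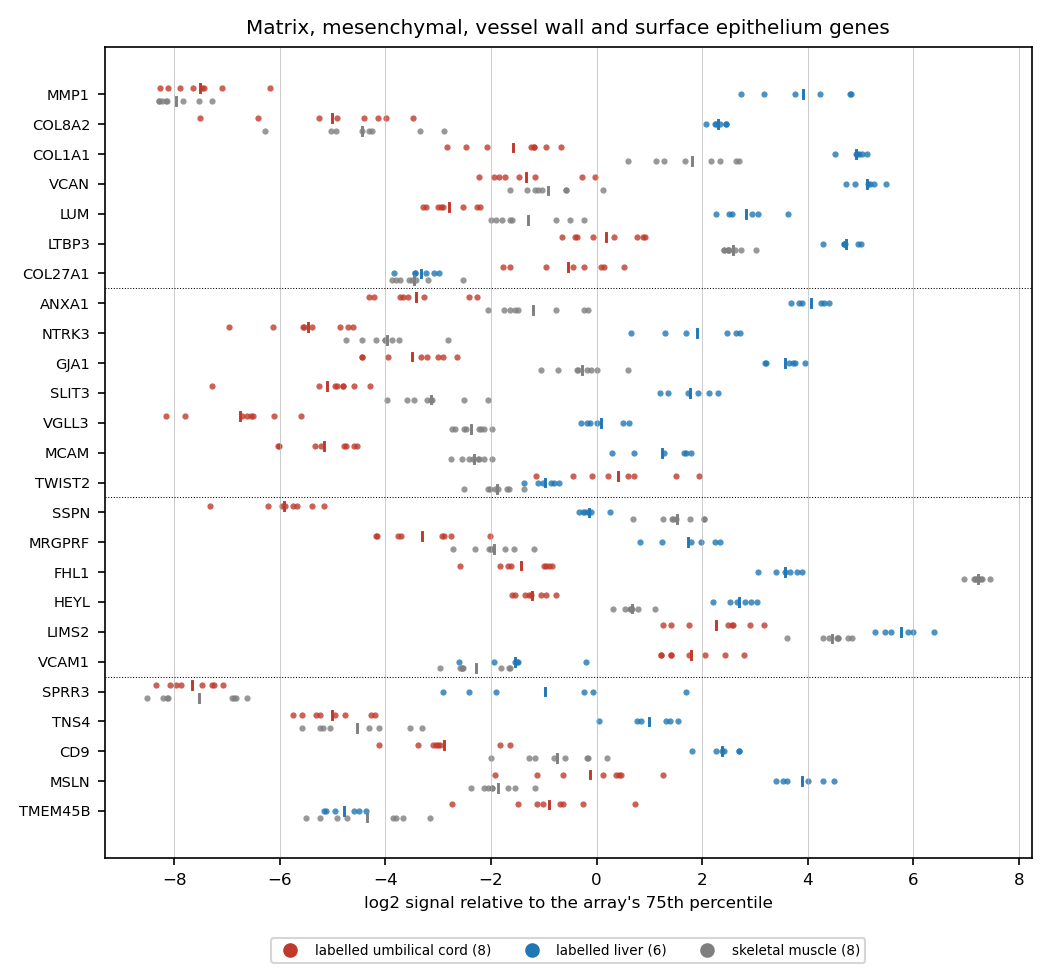
Level of 25 named genes on each array, as log2 signal relative to the array's 75th percentile, with points for the 8 cord-labelled, 6 liver-labelled and 8 skeletal muscle arrays and bars for the means, in blocks of matrix, mesenchymal, vessel wall and surface epithelium genes. The liver-labelled points lie to the right of all cord-labelled points at most genes, and COL27A1, TWIST2, VCAM1 and TMEM45B are shown as members of the opposite direction.

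Vessel wall and endothelial genes were mixed, with 10 of 18 called lower on the cord-labelled arrays, 8 by the 4-fold rule, and 4 called higher, beside 29.7%, 12.6% and 33.7% of all probes, and a median difference of -1.0 (-0.55 with the normexp correction and -0.43 after spike-in scaling). SSPN, sarcospan of the dystrophin complex, lay between -7.32 and -5.15 against -0.34 to 0.25, FHL1, a LIM protein of muscle cells, between -2.58 and -0.85 against 3.07 to 3.90, and HEYL, a Notch target of vascular smooth muscle, between -1.59 and -0.77 against 2.20 to 3.04. SSPN and FHL1 were higher still on skeletal muscle, with medians of 1.47 and 7.22. In the other direction VCAM1, an adhesion molecule of activated endothelium, lay between 1.21 and 2.80 against -2.60 to -0.21, a difference of 3.33 (SE 0.30, adjusted p = 1.2e-07). GPR182, known from sinusoidal and lymphatic endothelium, had medians of -3.98 and -5.64 and differed by 1.63, a call that was lost with slide as a fixed block (adjusted p = 0.51). EGFL7, the 1 named member of a textbook endothelial list of 21, was not called, with medians of 2.77 and 3.25.

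Of 14 genes of covering epithelia 4 were called lower on the cord-labelled arrays and 5 higher, shares near the 29.7% and 33.7% of all probes. By the 4-fold rule 4 were lower and 1 was higher, beside 12.6% and 11.1% of all probes. The median difference was near 0. Of a textbook list of 26 genes of amnion and surface epithelium only 2 had a name, SPRR3, called lower, and PERP, not called. The group therefore says little about the epithelium that covers the cord. SPRR3, a cornified envelope protein of stratified epithelium, lay between -8.35 and -7.08 on the cord-labelled arrays, 1 of 8 above background, and between -2.90 and 1.70 (median -1.07) on the liver-labelled arrays, a difference of -6.70 (SE 0.54, adjusted p = 3.5e-08), which was -3.29 with slide as a fixed block (adjusted p = 0.087). MSLN, mesothelin, a surface protein of mesothelium, had medians of 0.24 and 3.80, CD9, a tetraspanin, -3.02 and 2.39, and TNS4, an epithelial tensin, -5.09 and 1.08. None of these 4 genes overlapped between the labels. TMEM45B differed the other way, by 3.88, and KRT37, DEFB1, PERP and STEAP1 were not called.

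White blood cell genes did not fall on one side. Of 12 genes 4 were called higher on the cord-labelled arrays and 4 lower, beside 33.7% and 29.7% of all probes. By the 4-fold rule 4 were higher and 2 lower, beside 11.1% and 12.6% of all probes. The median difference was 0.13, with -0.68 within ABW, 0.45 within LBW and 0.89 within slide 4, and 0.70 after spike-in scaling. IL1R2, a decoy receptor for interleukin 1, lay between 2.40 and 5.03 (median 3.59) against -2.12 to 1.54 (median -1.38), and CD163L1, a scavenger receptor of macrophages, had medians of -1.52 and -5.36. KLRC2, a receptor of natural killer cells, had a median of -4.62 on the cord-labelled arrays and was above background on 1 of 6 liver-labelled arrays. With slide as a fixed block the calls of IL1R2 and KLRC2 were lost (adjusted p = 0.073 and 0.20). P2RX1, an ATP-gated channel of platelets and smooth muscle, lay between -4.29 and -2.01 against 0.79 to 2.18, and TYRO3, a receptor kinase, had medians of -0.34 and 2.32.

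Chemokines and interleukin receptors were called in both directions, 5 of 12 lower and 4 higher on the cord-labelled arrays, beside 29.7% and 33.7% of all probes. CCL11, eotaxin, lay between -8.06 and -6.66 on the cord-labelled arrays, 2 of 8 above background, and between -3.44 and 0.04 (median -1.77) on the liver-labelled arrays, a difference of -5.88 (SE 0.45, adjusted p = 1.9e-08). CCL2, which draws monocytes, lay between -8.40 and -5.02 against -2.95 to -0.37 with a fitted difference of -5.61, and CXCL1, which draws neutrophils, lay between -8.52 and -3.87 against -3.05 to -0.71, with a fitted difference of -4.95. None of these overlapped between the labels, and CCL2 and CXCL1 were likewise above background on 2 of 8 cord-labelled arrays, so these differences rest in part on dim values. OSMR, the oncostatin M receptor, differed by -2.64. The median difference was -0.76, with -0.065 within ABW and -0.40 within LBW, and became 0.0098 with the normexp correction. Higher on the cord-labelled arrays were VCAM1 and IL1RAP, both given above, IL11RA (1.27) and CXCL16 (0.85), the last of which differed by -0.36 within slide 4. The calls of IL1RAP, IL11RA and CXCL16 were lost with slide as a fixed block (adjusted p = 0.70, 0.30 and 0.93).

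Cell division genes were lower on the cord-labelled arrays at 21 of 26, 14 by the 4-fold rule, and higher at none. These counts stand beside 29.7%, 12.6% and 33.7% of all probes. The median difference was -2.05 (-0.74 with the normexp correction). ANLN, anillin, which acts in cytokinesis, lay between -7.20 and -5.15 (median -5.81) against -2.36 to -0.96 (median -1.64), a difference of -4.18 (SE 0.31, adjusted p = 1.4e-08). ECT2, which also acts in cytokinesis, was above background on 3 of 8 cord-labelled arrays and lay between -8.24 and -5.63 against -3.72 to -2.72. PTTG1, securin, had medians of -2.92 and 0.10, and CCNB1, cyclin B1, medians of -6.04 and -3.50. At 24 of the 26 genes the highest mean of the 3 sets was the liver-labelled one. At 17 every liver-labelled array lay above every cord-labelled array, beside 19.3% of all probes. CKS2, EZH2, PRIM1, SPC24 and STIL were not called.

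Genes of glycolysis and the hypoxia response were lower on the cord-labelled arrays at 5 of 10, 4 by the 4-fold rule, and higher at 2, beside 29.7%, 12.6% and 33.7% of all probes. The median difference was -1.18, with -0.29 within ABW, -1.90 within LBW and -0.65 within slide 4. EGLN3, a prolyl hydroxylase that is itself induced by low oxygen, lay between -5.37 and -3.41 (median -4.74) against -0.19 to 0.93 (median 0.59), a difference of -5.06 (SE 0.31, adjusted p = 1.7e-09). SLC2A3, the glucose transporter GLUT3, lay between -5.50 and -4.23 against -0.46 to 0.95 and differed by -4.86. HIF1A, the oxygen-regulated transcription factor, lay between -0.34 and 0.69 against 1.98 to 3.35 and differed by -2.84. None of the 3 overlapped. LDHA, lactate dehydrogenase A, was higher on the cord-labelled arrays by 1.07, with the call lost after spike-in scaling (adjusted p = 0.061), and PGK1 was not called (0.03).

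Basic cell machinery was mixed. Of all probes 33.7% were called higher and 29.7% lower, and the counts here are read beside these shares. Of 19 secretory pathway genes 9 were higher and 4 lower on the cord-labelled arrays, with a median difference of 0.36, SEC11C, a signal peptidase subunit, highest at 2.32 and RCN2, a calcium-binding protein, lowest at -2.61. Of 12 oxidative phosphorylation genes 3 were higher, a smaller share than of all probes, and none lower, with a median of 0.60, and 11 had their highest mean on skeletal muscle. Their median was 1.92 within ABW and -0.50 within LBW. NDUFV3, of complex I, differed by 2.09 and SDHD, of complex II, by 1.82. Of 9 mitochondrial ribosome genes 6 were higher and 1 lower (MRPS6, -1.92), with a median of 0.97 (1.67 within ABW and 0.30 within LBW). Of 9 cytosolic ribosomal protein genes only RPL10 was called (-1.60), with a median of -0.50 (0.10 and -1.17).

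The skeletal muscle label was checked in the same way. Of 10 striated muscle genes 9 had their highest mean on the skeletal muscle arrays, the median level of the group lay between 2.17 and 2.96 there, and between -3.61 and -2.93 on the cord-labelled and -1.97 and -1.35 on the liver-labelled arrays. TCAP, titin-cap, lay between 8.32 and 9.06 on muscle, with medians of 0.45 and -0.59 on the cord-labelled and liver-labelled arrays. The creatine kinase gene CKB, of the brain and smooth muscle form, was the exception, with a liver-labelled median of 4.08 against -0.56 and -0.92 in the other sets.

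Other genes among the 15 largest differences in a direction were OGDHL, VWCE and APEG1. OGDHL, an isoform of oxoglutarate dehydrogenase, lay between 1.55 and 3.57 against -7.76 to -6.28, with 3 of 6 liver-labelled arrays above background, and VWCE, a protein with von Willebrand factor C domains, between 3.62 and 5.56 against -4.39 to -2.56. APEG1, known from differentiated smooth muscle of the aorta, lay between -2.99 and -1.63 against 3.48 to 4.98, with skeletal muscle between them at 0.92 to 1.78. None of the 3 overlapped between the labels, and the differences were 9.61, 8.48 and -6.85.

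Further members with large differences in their groups were CSGALNACT2 (-2.86) and DSE (-2.0), which act on chondroitin and dermatan sulfate chains, MRGPRF (-5.03) and LIMS2 (-3.50) of the vessel wall group, CACNB1 (-2.78), a calcium channel subunit of the muscle group, APBB1IP (2.17) of the white blood cell group, FAM64A (-3.50) and UHRF1 (-2.76) of the cell cycle group and BNIP3L (-2.88) of the hypoxia group. All were called by the 4-fold rule, although the calls of CACNB1 and UHRF1 were lost with slide as a fixed block (adjusted p = 0.087 and 0.32) and that of DSE after spike-in scaling (adjusted p = 0.11). BNIP3L overlapped between the labels and was above background on 5 of 8 cord-labelled arrays. Its cord-labelled values lay between -4.53 and -2.17 in ABW and between -8.31 and -6.47 in LBW, all on slide 5. The liver-labelled arrays lay between -3.21 and -1.73, so its difference lay mainly in the LBW arrays. Against the direction of their groups, PTGIR (0.74), S1PR2 (1.06) and DNAJC10 (-0.83) were called, and all 3 calls were lost with slide as a fixed block (adjusted p = 0.35, 0.36 and 0.19).

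Wide ranges within a label also marked single members. On the cord-labelled arrays ATP5F1 ranged from -3.0 to 3.31, STT3B from -6.92 to -1.81, CKLF from -8.82 to -3.34 and RPL13 from 1.78 to 5.02. On the liver-labelled arrays MMP25 ranged from -8.13 to -1.83, CXCL3 from -4.78 to -0.38, IP6K3 from -8.03 to -5.48, PDE1C from -4.61 to -2.21 and CSAD from -3.42 to -1.06. Of these CXCL3, PDE1C and CSAD were called, with differences of -1.76, -3.04 and 3.01, and the calls of CXCL3 and PDE1C were lost with slide as a fixed block (adjusted p = 0.15 and 0.11).

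**Figure D4:**
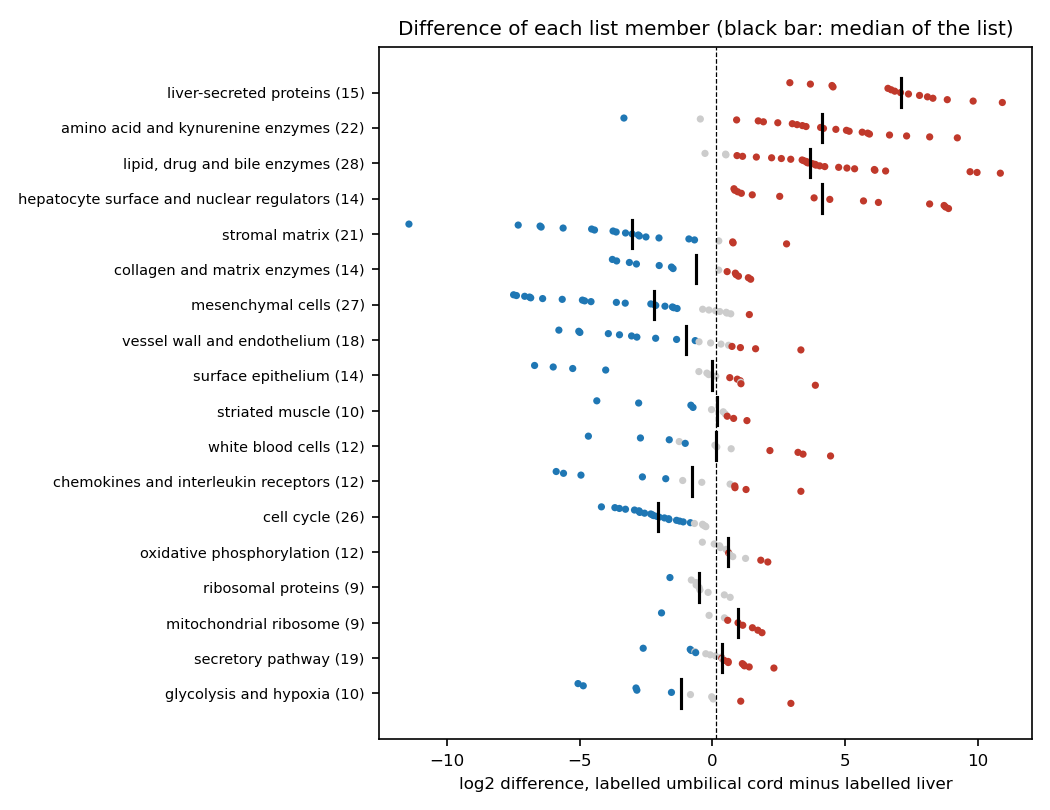
Difference between the cord-labelled and liver-labelled arrays, in log2 units, for each member of 18 gene groups, with red for genes called higher, blue for genes called lower, grey for genes not called, a black bar for the group's median and a dashed line for the median of all probes, 0.13. The 4 liver groups have medians of 3.68 to 7.09, and the stromal matrix and cell cycle groups medians of -3.02 and -2.05.

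The difference between the labels was also compared between the birth weight groups. The interaction of label and birth weight was called at 30 probes, 0.175% of those tested, all with a smaller cord-labelled minus liver-labelled difference in LBW, and at 1187 by an unadjusted p under 0.05. The genes among them in the groups above were EHHADH, CFHR2, F13B and CHPT1 of the liver groups, and COX7B, NDUFB1, ATP5C1, MRPL1 and TALDO1 of energy metabolism and the mitochondrial ribosome. F13B differed by 8.97 within ABW and 5.20 within LBW (interaction -3.77, adjusted p = 0.023), and CFHR2 by 10.04 and 6.58 (interaction -3.46, adjusted p = 0.035). Neither was above background on any liver-labelled array, so these are fitted values on dim signals. EHHADH was above background on the cord-labelled ABW arrays alone, and no change with birth weight is read from it. COX7B, a subunit of cytochrome oxidase, differed by 2.87 within ABW and -1.34 within LBW (interaction -4.21, adjusted p = 0.019). The count of these calls was 0 without liver-labelled ABW replicate 1 or 3 or LBW replicate 2 or 3, 0 after spike-in scaling and 2 with the normexp correction.

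Among the named members of the groups the spread over the cord-labelled arrays went with the slide. Of the 290 members of the groups 36 ranged over 4 log2 units or more across the 8 cord-labelled arrays, against 7 across the 6 liver-labelled arrays. In 28 of the 36 every array of slide 5 lay below every array of slides 4 and 6. These members have a symbol because the study chose them for a birth weight effect on these same arrays. The pattern was not counted over all probes, so these counts do not show how common it is on the array. Slide 5 held the 4 LBW arrays and no other, and for these arrays the slide cannot be told apart from birth weight. EHHADH lay between -8.40 and -7.68 on slide 5, between -4.36 and -4.01 on slide 4 and between -1.92 and -1.73 on slide 6. NDUFB1, of complex I, lay between -2.77 and -1.41, between 1.05 and 1.08 and between 1.99 and 2.52, respectively. RPL30, a ribosomal protein, lay between -5.12 and -3.97, between -3.08 and -2.77 and between 0.97 and 1.05, so that the 2 slides of ABW arrays also differed from each other. Slide 6 had a net signal of its negative controls of 16.7 to 17.1, against 29.2 to 33.8 on the other arrays of both labels. It also had another scan day and software version, and the part of these in the gene differences was not tested.

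**Figure D5:**
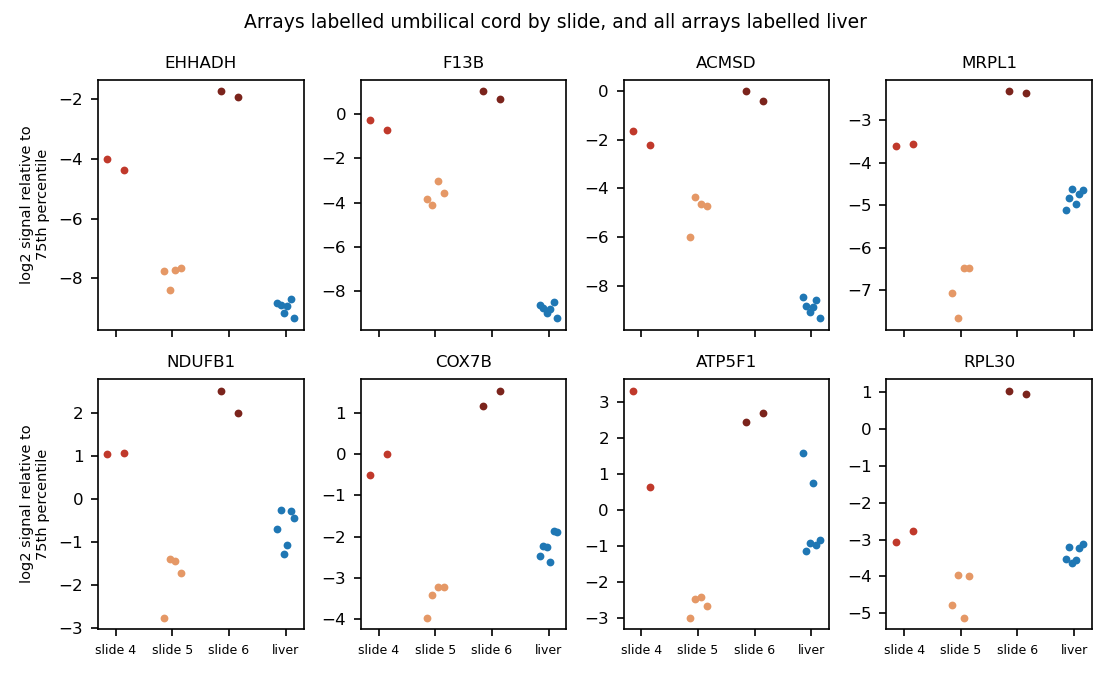
Level of 8 genes with wide ranges, as log2 signal relative to the array's 75th percentile, on the cord-labelled arrays of slide 4 (2 ABW), slide 5 (4 LBW) and slide 6 (2 ABW) and on the 6 liver-labelled arrays, with 1 point per array. The slide 5 points lie lowest among the cord-labelled arrays at every gene shown, and at F13B the arrays of all 3 slides lie above the liver-labelled arrays, none of which was above background.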

How the data were processed

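RNA of umbilical cord, liver and biceps femoris, by the labels, was hybridised to 22 single-colour Agilent rhesus macaque arrays. Per the labels total RNA was extracted with TRIzol and labelled with Cy3 after priming with oligo-dT. The deposited scanner files give spot intensities that Feature Extraction had background-subtracted and spatially detrended, with no scaling between arrays, and each spot's flag for well above background, another column used here as deposited. The authors' own table of log2 values, centred within a tissue, was not used, since that removes differences between tissues.

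Each value is the log2 of the mean of a probe's 2 spots, less the log2 of the 75th percentile of that array. A probe was kept, as 17117 of 20217 were, if in 1 or more of the 6 groups 75% of the arrays flagged it. The 14 arrays were fitted with limma 3.58.1 in R 4.3.3 (label and birth weight, empirical Bayes), with Benjamini-Hochberg adjustment over all probes. Where a probe was not well above background on any array of a label, a bound was computed against the higher of the probe's own signal and the array's lowest signal above background. Fits were tested on simulated data. Tables and plots used Python 3.11.15, pandas 2.3.3 and matplotlib 3.10.9.

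Symbols came from pairs of accession and symbol listed by the study for 1657 accessions, and the reference table supplied matched none of 19376. The probe with the highest mean over the 14 arrays stood for a gene. Named were the 15 genes with the largest non-overlapping difference in each direction, up to 6 members per group with the largest 4-fold calls, members against their group's direction, members below background, genes with an interaction, and the member of each group with the widest range within a label. Members given by their median, and a few given to describe a group, lie outside this rule and were chosen after their values were seen. The comparison, the groups of genes and the textbook lists were all chosen with earlier results of these data known.

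The alternatives were normexp background correction, 3 other scalings (median, spike-in controls, quantiles), filters and floors on dim probes, other fits, blocks for slide and replicate number, a mean per accession, and each array left out in turn. The number of arrays limits the precision. Some genes are not reported here, and the counts of their groups include them. The other columns of the files and the study's qRT-PCR were not used here.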

Additional observations from a re-analysis of the deposited data

Results flagged for a closer look

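Of 308 groups of 4 to 10 arrays tested, named genes and group medians within each label, 14 held a single array far from the others, where chance gives about 1 in 20. On cord-labelled LBW replicate 1 CD163L1 was at -4.32 (the others -2.19 to -0.79), CKB at 2.17 (-1.40 to -0.11), GAS2 at -0.31 (0.73 to 1.65), PCOLCE2 at 0.40 (1.23 to 1.70) and SLC39A8 at -0.85 (0.29 to 1.12). On the other cord-labelled arrays TYRO3 was at 0.74 in LBW replicate 2, SLIT3 at -7.29 in LBW replicate 3, QSOX1 at 3.98 in LBW replicate 4 and CDC2 at -3.12 in ABW replicate 3. On liver-labelled LBW replicate 1 ARHGAP11A was at -2.96, COL1A1 at 4.53 (4.92 to 5.12) and HIF1A at 1.98 (2.96 to 3.35). MYH6 was at -7.94 in liver-labelled ABW replicate 3, and the median of the chemokines and interleukin receptors at -0.84 in liver-labelled ABW replicate 1 (-2.83 to -2.22).

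The interaction test of label and birth weight called 9 named genes. For EHHADH the fitted interaction of -4.84 rests on signals below background on every array but the cord-labelled ABW ones, and no change with birth weight is read from it. For the other liver genes the LBW minus ABW change in the cord-labelled minus liver-labelled difference was -3.77 for F13B, -3.46 for CFHR2 and -3.11 for CHPT1 (5.32 and 2.22, adjusted p = 0.017). For the genes of energy metabolism and the mitochondrial ribosome it was -4.21 for COX7B, -4.01 for MRPL1 (1.88 and -2.13, adjusted p = 0.016), -3.64 for NDUFB1 (2.41 and -1.24, adjusted p = 0.035), -3.20 for ATP5C1 (1.90 and -1.30, adjusted p = 0.016) and -2.65 for TALDO1 (0.50 and -2.15, adjusted p = 0.041). F13B and CFHR2 were not above background on any liver-labelled array, so that their differences rest on dim signals.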

How the results depend on the processing

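With the arrays left out 1 at a time the probes called ranged from 10205 to 10985, against 10857 with all 14. The total fell to 5622 after scaling to spike-in controls (3754 higher, 1868 lower, and 2902 higher by the 4-fold rule) and to 3998 with slide as a fixed block (1926 and 2072), where only slide 4 holds both labels. Within slide 4, whose cord-labelled arrays are ABW and liver-labelled arrays LBW, it was 7573 (3838 higher, 3735 lower). With the normexp correction the 4-fold calls were 1187 higher and 1071 lower. The interaction calls were 2 with normexp, 0 after spike-in scaling (182 at an unadjusted p under 0.05), 15 with quantile normalization, 19 without slide 6, and 0 to 61 with single arrays left out, 0 without liver-labelled ABW replicate 1 or 3 or LBW replicate 2 or 3. The cause of these changes was not tested. The deviations from group means of same-numbered arrays of the 2 labels correlated at 0.07, 0.05, -0.11, 0.16, -0.02 and -0.16. Differently numbered arrays of the 2 labels correlated at -0.24 to 0.34. Because the tissues differ and the groups are small, this cannot tell whether same-numbered arrays share an animal. With the replicate block 10729 probes were called and 30 interactions.

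Group medians that moved by more than the spread between arrays were as follows. With normexp they were 3.88 (liver-secreted), 3.41 (amino acid), 2.77 (lipid and drug), 1.96 (hepatocyte regulators), -1.47 (mesenchymal), -0.55 (vessel wall), -0.74 (cell cycle) and 0.0098 (chemokines, from -0.76). After spike-in scaling they were 4.70 (amino acid), 4.69 (hepatocyte regulators), -2.45 (matrix), -0.053 (matrix enzymes), -1.62 (mesenchymal), -0.43 (vessel wall), 0.56 (epithelium), 0.76 (striated muscle), 0.70 (white blood cells), -1.48 (cell cycle), 1.53 (mitochondrial ribosome) and 0.92 (secretory pathway), while the median of all probes moved from 0.13 to 0.70. A common floor gave 5.57 (liver-secreted) and 3.38 (hepatocyte regulators), quantile normalization -3.60 (matrix) and averaging per accession -0.92 (matrix enzymes). Slide as a fixed block gave 4.32 (lipid and drug), 4.61 (hepatocyte regulators), -3.45 (matrix) and -2.67 (mesenchymal). Slide 4 alone gave -0.20 (matrix enzymes), -1.45 (vessel wall), 0.78 (epithelium), -0.31 (striated muscle), 0.89 (white blood cells) and -1.55 (cell cycle).

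Of 4624 values of single named genes under an alternative 4488 kept direction and call, 118 lost the call (33 of them with slide as a fixed block and 20 after spike-in scaling), 14 gained it and 4 changed sign: MRPL1 to 0.62 with normexp and 1.09 within slide 4, CXCL16 to -0.36 within slide 4 (no cord-labelled LBW array is on that slide, and MRPL1 is 1.88 within ABW and -2.13 within LBW) and QSOX1 to -0.36 when averaged per accession. With a single array left out MRPL32, PPP1R3F, SEC23A, SEC24D and TCAP lost their calls, with adjusted p up to 0.098, 0.053, 0.051, 0.12 and 0.079. Signals near background, which 11 of 79 liver genes had on every liver-labelled array, limit what their differences can show to a bound.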
